A study of Rattus norvegicus with 56 samples.

Results

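The N-methyl-D-aspartate (NMDA) receptor genes Grin1, Grin2a, Grin2b, Grin2c, Grin2d, Grin3a and Grin3b, which encode the subunits of this ionotropic glutamate receptor, were followed in hippocampus and parietal cortex of young and aged rats. Their probes were the non-control probes of the array whose accession, without its version, pairs with 1 of the 7 symbols in a RefSeq table. This gave 10 probes for the 7 genes, of 45598 probes and 16581 symbols in all. Grin2a, Grin2d and Grin3a had 2 probes each, called probe 1 and probe 2, and the other genes 1 probe. Both Grin2a probes carried the accession NM_012573 and both Grin2d probes NM_022797, whereas Grin3a probe 1 carried NM_138546 and Grin3a probe 2 another transcript of the gene, NM_001198583. The remaining accessions were NM_017010 (Grin1), NM_012574 (Grin2b), NM_012575 (Grin2c) and NM_133308 (Grin3b).

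All animals were male Long-Evans rats, either young (Y, 6 to 7 months) or aged (26 to 27 months), and the labels class aged animals as AU or AI, which the study uses for aged-unimpaired and aged-impaired. The water maze test behind these classes is described in the methods for rats of a separate slice experiment. By the methods, every animal was lightly anesthetized with isoflurane and sedated with dexmedetomidine, at a dose per body weight set separately for young and aged rats and reversed afterward with Antisedan. Before the reversal it received intermittent theta burst stimulation (iTBS), magnetic pulses given through a coil over the head in short repeated bursts, or a sham procedure with the coil held far from the head. Dorsal hippocampus and the neocortex under the coil, labeled parietal cortex, were taken 48 h later and hybridized separately to 1-color arrays. The Y_Sham, Y_iTBS, AU_Sham and AI_Sham groups held 4 animals each, AU_iTBS held 5 and AI_iTBS 3, which makes 24 animals, each with both regions. These numbers are those of the sample titles and are larger than the ones in the text of the methods. Tissue pieces hold many cell types, so fewer cells of a type and less RNA per cell cannot be told apart in these values.

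NMDA receptors are glutamate-gated cation channels that pass calcium when glutamate and a co-agonist, glycine or D-serine, are bound and the membrane is depolarized, and they are best known in hippocampus and neocortex for starting lasting changes in synaptic strength. Every receptor holds GluN1, the obligatory glycine-binding subunit from Grin1, joined by glutamate-binding GluN2 subunits from the Grin2 genes, which set channel kinetics and anchoring, and in some receptors by glycine-binding GluN3 subunits from the Grin3 genes, which lower calcium entry. In forebrain GluN2B is prominent early in life and GluN2A is gained during postnatal maturation, whereas GluN2C and GluN2D are better known from cerebellum, thalamus, brainstem and subsets of interneurons or glia.

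RefSeq promoter sequences (assembly GRCr8, 250 bases before to 50 bases after the start of the gene) were at hand for 4 of the 7 genes, namely Grin1, Grin2c, Grin2d and Grin3a, all on the minus strand. Those of Grin2c and Grin3a are printed because these genes differed between the regions in opposite directions. They are written 5′ to 3′ in lower case, with each CG dinucleotide in capitals.
Grin2c promoter, chr10:101005089-101005388, minus strand: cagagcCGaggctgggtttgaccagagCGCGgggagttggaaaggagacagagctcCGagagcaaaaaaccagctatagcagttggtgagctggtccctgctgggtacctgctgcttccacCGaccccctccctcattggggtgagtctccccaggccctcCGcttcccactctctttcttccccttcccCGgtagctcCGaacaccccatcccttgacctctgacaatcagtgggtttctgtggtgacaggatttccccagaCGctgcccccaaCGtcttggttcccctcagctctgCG
Grin3a promoter, chr5:69001509-69001808, minus strand: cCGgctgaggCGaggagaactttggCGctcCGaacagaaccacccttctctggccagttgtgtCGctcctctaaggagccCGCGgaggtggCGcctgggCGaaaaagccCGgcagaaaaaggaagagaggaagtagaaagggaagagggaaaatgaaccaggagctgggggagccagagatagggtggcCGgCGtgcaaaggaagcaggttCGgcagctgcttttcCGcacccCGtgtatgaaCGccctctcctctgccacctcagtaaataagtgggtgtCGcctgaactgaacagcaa
The Grin2c window held 11 CG dinucleotides, the Grin2d window 11, the Grin3a window 17 and the Grin1 window 25, against a median of 7 over 33469 rat promoters of the same length. Of 3 motifs searched on both strands, the E-box CAGCTG, found in 15.1% of promoters, had 1 match in the Grin3a window. The GC box GGGCGG, found in 33.1%, and the cyclic AMP response core TGACG, found in 21.2%, had no match in the 2 printed windows. The Grin1 window (chr3:28528705-28529004) held 1 GC box match and 3 TGACG matches, and the Grin2d window (chr1:105481187-105481486) held none of the 3 motifs. These are matches of letters only.

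Across the 56 arrays, between 59.3% and 69.7% of features were well above background, and no spot of an NMDA receptor probe was saturated or marked as an outlier. The arrays were scanned in 3 batches. Of the 24 animals, 15 had both regions in the first batch, and every group had animals both there and later. In 8 of the 9 later animals hippocampus was in the third batch and cortex in the second, so that region and scan batch cannot be told apart within them, and 1 animal had both regions in the second. The later minus first batch difference passed limma for 28% of all probes in hippocampus and 34.7% in cortex. In hippocampus these included Grin1 (-0.34), Grin2b (-0.5) and Grin2d probe 1 (-0.53), and in cortex Grin2a probe 1 (-0.34), Grin2d probe 1 (-0.57) and Grin2d probe 2 (0.39). Values from within the batches are given beside the results they move. Within the later batches AU_iTBS held 3 animals, Y_Sham 2 and the other groups 1 each, so that later values rest on few animals. A technical repeat of the cortex of AI_iTBS animal 2 was closer to AI_Sham animal 2 (r = 0.684 over the 500 most variable probes) than to its own first array (r = 0.0814) and was left out, whereas the 6 repeats used matched their own first array with r from 0.618 to 0.944.

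Values are normalized log2 intensities on which 0 is the mean of an array, rescaled to the mean SD of the arrays, so that a difference of 1 is close to a doubling and fold changes are on this scale. A probe's level can be compared between animals but not with another probe's level. Grin1, both Grin2a probes, Grin2b, Grin2c, both Grin2d probes and Grin3a probe 1 were well above background in all 24 animals in both regions. Grin3b was well above background in 21 of 24 hippocampi and in all 24 cortices, and Grin3a probe 2 in 2 of 24 hippocampi and 3 of 24 cortices, so that Grin3a probe 2 was tested in cortex and between regions only. The 6 repeats came mostly from animal 3 of Y_Sham, so that repeatability rests on few animals. In them the repeat differed from the first array by a median of 0.04 for Grin3a probe 1 and 0.09 for Grin2a probe 1. It was 0.11 for Grin2a probe 2, 0.09 for Grin2b and 0.12 for Grin1. The median was 0.2 for Grin2c, 0.21 for Grin3b, 0.24 for Grin2d probe 2, 0.32 for Grin2d probe 1 and 0.82 for Grin3a probe 2, the least repeatable probe.

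When the 6 groups were ordered by mean, all 5 neighboring pairs had overlapping values for every probe and region except Grin3a probe 1 in hippocampus, with 4 of 5, where Y_iTBS and AI_iTBS, 0.53 apart, had none. Among pairs farther apart in the order, which were not counted, some did not overlap. Ordering by mean puts groups of close means side by side, so overlap of neighbors says little. How often groups overlap among all probes was not counted, here or for the pairs of groups below. Group means spanned the least for Grin2c in hippocampus, 0.24, from AU_Sham (6.74 ± 0.236, SD, n = 4) to AI_iTBS (6.98 ± 0.0615, SD, n = 3). Among probes well above background in all animals they spanned the most for Grin3a probe 1 in hippocampus, 0.97, from Y_Sham (0.84 ± 0.56, SD, n = 4) to Y_iTBS (1.81 ± 0.371, SD, n = 4).

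**Figure D1:**
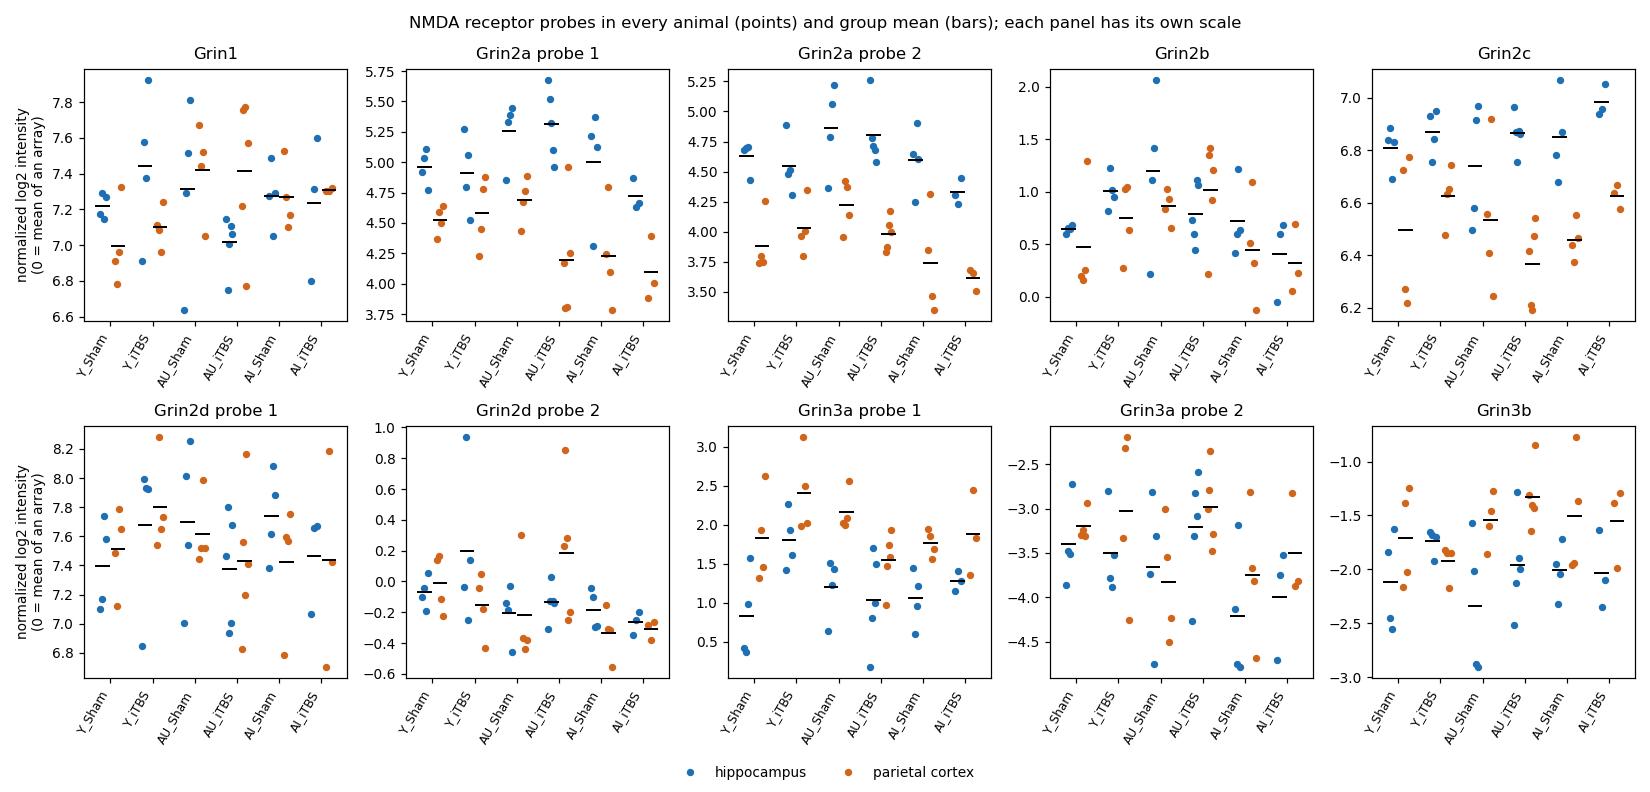
Normalized log2 intensity (vertical axes, 0 is the mean of an array) of each NMDA receptor probe in every animal, by group, with a color for each region and black bars for group means. Group means of Grin2a lie higher in hippocampus and those of Grin3a probe 1 higher in cortex in all 6 groups.

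The comparison of the regions, taken within each animal as hippocampus minus parietal cortex, was the only one in which NMDA receptor probes passed the test. Both probes of Grin2a, and Grin2c, were higher in hippocampus, whereas Grin3a probe 1 and Grin3b were higher in cortex. Grin1, Grin2b, both Grin2d probes and Grin3a probe 2 did not pass. In all, 5 of 10 probes were called at a limma adjusted p under 0.05, 3 higher and 2 lower in hippocampus, where 49.4% of all 33770 probes tested were called (26.3% higher and 23.2% lower), so that the share among NMDA receptor probes was close to that of all probes.

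Grin1, the obligatory subunit, ranged from 6.64 through a median of 7.27 to 7.92 in hippocampus and from 6.77 through a median of 7.26 to 7.77 in cortex, and was higher in hippocampus in 12 of 24 animals. The regions covered nearly the same range. The fitted difference was 0.0 (95% interval -0.2 to 0.19, limma adjusted p = 0.995), with 0.16 in the first scan batch and -0.37 in the later animals.

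Grin2a, the subunit gained in maturing forebrain synapses, differed in the same direction on both probes. Grin2a probe 1 ranged from 4.31 through a median of 5.08 to 5.68 in hippocampus and from 3.79 through a median of 4.41 to 4.96 in cortex. Grin2a probe 2 ranged from 4.23 through a median of 4.66 to 5.26 in hippocampus and from 3.35 through a median of 3.91 to 4.42 in cortex. The ranges overlapped, but 22 of 24 animals had the higher Grin2a probe 1 value in hippocampus, and 22 of 24 the higher Grin2a probe 2 value. The difference was 0.64 (SE 0.11, 1.56-fold, limma adjusted p = 5.29e-05) for Grin2a probe 1 and 0.71 (SE 0.0866, 1.64-fold, limma adjusted p = 6.48e-07) for Grin2a probe 2. In the 15 animals of the first scan batch it was 0.44 (limma adjusted p = 0.0199) and 0.64 (limma adjusted p = 0.00147), and in the later animals 0.92 and 0.78. Both probes were called under each of 15 other settings and without each of the 24 animals.

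Grin2b, the subunit prominent early in life, was not called. It ranged from -0.05 through a median of 0.69 to 2.07 in hippocampus and from -0.12 through a median of 0.67 to 1.42 in cortex, and was higher in hippocampus in 14 of 24 animals. The difference was 0.15 (95% interval -0.1 to 0.39, limma adjusted p = 0.31), with 0.22 in the first scan batch and -0.04 in the later animals. Whether Grin2a and Grin2b differed from each other in this was not tested.

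Grin2c, known outside cerebellum mainly from thalamus, astrocytes and some interneurons, was higher in hippocampus by a small amount. It ranged from 6.5 through a median of 6.87 to 7.07 in hippocampus and from 6.19 through a median of 6.51 to 6.92 in cortex, and 22 of 24 animals had the higher value in hippocampus. The difference was 0.33 (SE 0.049, 1.26-fold, limma adjusted p = 8.03e-06). It was 0.31 in the first scan batch (limma adjusted p = 0.00196) and 0.33 in the later animals alone, where it was not called (limma adjusted p = 0.0539).

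Grin2d, known from diencephalon, brainstem and interneurons, had no called difference on either probe. Grin2d probe 1 ranged from 6.85 through a median of 7.64 to 8.25 in hippocampus and from 6.7 through a median of 7.55 to 8.28 in cortex. Grin2d probe 2 ranged from -0.46 through a median of -0.13 to 0.94 in hippocampus and from -0.55 through a median of -0.21 to 0.85 in cortex. The difference was 0.02 for Grin2d probe 1 (95% interval -0.19 to 0.23) and 0.03 for Grin2d probe 2 (95% interval -0.12 to 0.18). Grin2d probe 2 had opposite signs by scan batch, with 0.18 in the first and -0.2 in the later animals, neither called.

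Grin3a, whose subunit lowers calcium entry and is most abundant early in life, had the only probe with the same sign in every animal. Grin3a probe 1 ranged from 0.18 through a median of 1.25 to 2.27 in hippocampus and from 0.98 through a median of 1.93 to 3.12 in cortex, and was lower in hippocampus in 24 of 24 animals. The difference was -0.73 (SE 0.0737, 1.66-fold, limma adjusted p = 4.50e-08), and -0.72 in the first scan batch (limma adjusted p = 4.88e-05). Group means of the within-animal difference lay between -0.995 in Y_Sham and -0.507 in AU_iTBS. Grin3a probe 2, from the other transcript and mostly near background, gave -0.28 (SE 0.178, limma adjusted p = 0.202), with 0.04 in the first scan batch and -0.76 in the later animals, where it was called (limma adjusted p = 0.0112).

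Grin3b, whose subunit is best known from motor neurons of brainstem and spinal cord, had a dim probe. It ranged from -2.9 through a median of -1.97 to -1.28 in hippocampus and from -2.17 through a median of -1.53 to -0.77 in cortex, and was lower in hippocampus in 16 of 24 animals. The difference was -0.44 (SE 0.112, 1.36-fold, limma adjusted p = 0.00263). It was uneven over the groups: all 4 Y_iTBS animals had the higher value in hippocampus (mean 0.18, from 0.15 to 0.25), whereas the other 5 groups had means from -0.79 to -0.41. Grin3b was called in the first scan batch (-0.58, limma adjusted p = 0.00126) and in sham animals (-0.57, limma adjusted p = 0.0323), but not in the later animals (-0.12, limma adjusted p = 0.721) or in iTBS animals (-0.31, limma adjusted p = 0.0606).

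**Figure D2:**
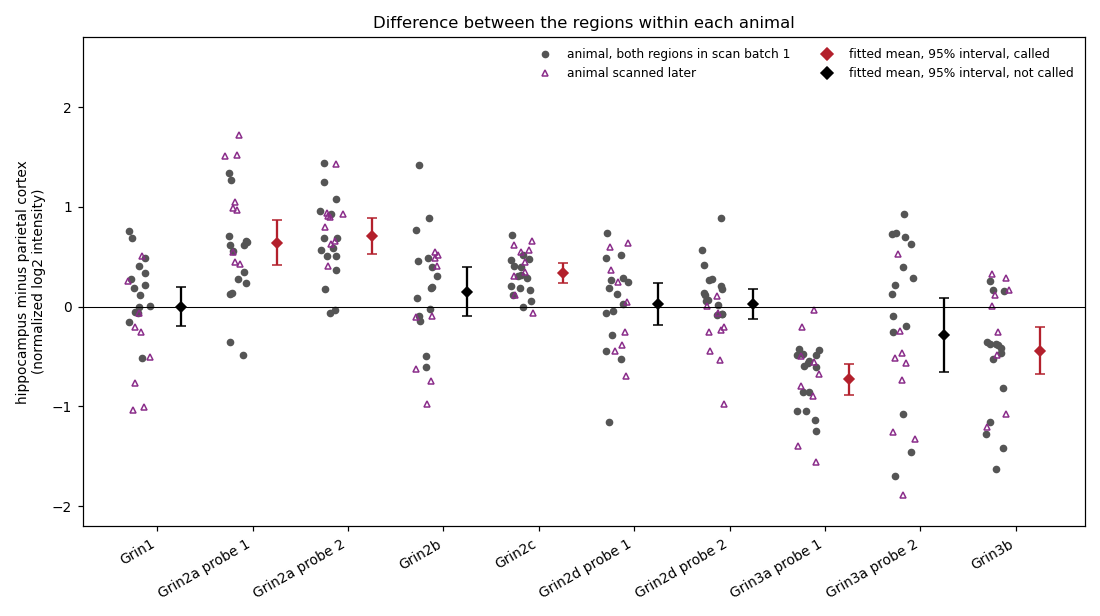
Hippocampus minus parietal cortex (vertical axis, normalized log2 intensity) for each NMDA receptor probe, with 1 point per animal (circles, both regions in the first scan batch; triangles, later animals) and diamonds for the fitted mean with its 95% interval, red where called. All 24 animals lie below 0 for Grin3a probe 1, and 22 of 24 above 0 for both Grin2a probes and Grin2c.

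No regional difference was called to depend on age or on stimulation. For aged minus young, 0 of 10 probes passed limma (0.0237% of all probes did), with 1 at an unadjusted p under 0.05 against 15.9% of all probes. That was Grin1, at -0.43 (95% interval -0.84 to -0.02, limma adjusted p = 0.307). For iTBS minus sham, 0 of 10 passed limma (0% of all probes), with 1 at an unadjusted p under 0.05 against 2.67% of all probes. That was Grin3a probe 1, at 0.32 (95% interval 0.01 to 0.63, limma adjusted p = 0.999).

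Genes that work around the receptor were read from 4 lists, and each list held genes called in both directions. A gene was read by its brightest probe, taken first from probes with a value in every animal and region. The numbers called stand beside 49.4% called among all probes between regions, and no list was tested against that share. Of 36 scaffold and kinase genes tested, 10 were higher and 14 lower in hippocampus, with a list median of -0.07 beside 0.02 for all probes. Higher were Homer3, a postsynaptic scaffold (2.54, SE 0.0676), and the kinase Ptk2b (0.9, SE 0.132), and lower were the scaffold Dlg1 (-0.92, SE 0.0654) and the actin cross-linker Actn1 (-0.68, SE 0.114). Of 14 genes handling the co-agonists glycine and D-serine, 6 were higher and 2 lower, with a median of 0.18. The amino acid carrier Slc1a5 (0.54, SE 0.102) and the glycine transporter Slc6a9 (0.42, SE 0.0873) were higher, and the glycine transporter Slc6a5 (-0.73, SE 0.245) and serine racemase Srr (-0.16, SE 0.0452) lower. Sham animals alone and the later animals alone gave 5 and 4 called genes of this list. These are smaller sets of animals, to which the 49.4% does not apply.

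Of 16 genes of glutamate supply and clearance, 4 were higher and 5 lower, with a median of 0.05. Slc17a8, a vesicular glutamate transporter, was well above background in all 24 hippocampi and in 0 of 24 cortices. It was at least 3.1-fold above cortex in hippocampus (measured means -1.51 and -4.31, limma adjusted p = 5.48e-13), a bound set against the lowest signal well above background on each array. The glutamate uptake carrier Slc1a1 (0.72, SE 0.0565) was higher, and the glutaminase Gls2 (-0.87, SE 0.0671) and the glutamine carrier Slc38a1 (-0.54, SE 0.0822) lower. Of 22 genes of calcium signaling to the nucleus, 6 were higher and 4 lower, with a median of 0.07. In the later animals alone 4 were called in all, from fewer animals than the share of all probes given above. The kinase Camkk1 (0.69, SE 0.11) and the calcineurin subunit Ppp3ca (0.51, SE 0.0565) were higher, and the kinase Camk4 (-0.57, SE 0.0785) lower.

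Markers of the tissues and their cells were read in the same way, again beside 49.4% called among all probes. Of 9 markers of hippocampal pyramidal and granule neurons tested, 6 were higher in hippocampus, led by Fibcd1 (4.29), and 1 lower, and their mean level ran from 2.93 to 3.46 over hippocampi and 1.65 to 2.77 over cortices. The granule cell marker Prox1 was at -0.08 (limma adjusted p = 0.548). Of 9 cortical neuron markers, 6 were higher in cortex and 2 higher in hippocampus, with a mean level of 1.01 to 1.67 in hippocampus and 1.75 to 2.65 in cortex. Of 10 interneuron markers, 6 were higher in cortex, led by Vip (-1.69), and 1 higher in hippocampus (mean level 4.95 to 5.4 against 5.32 to 5.84). Of 8 astrocyte markers, 5 were higher in hippocampus, led by Gfap (1.42), and 0 in cortex (mean level 6.47 to 6.93 against 5.92 to 6.67). Of 9 oligodendrocyte markers, 8 were higher in hippocampus and 1 lower (6.31 to 6.86 against 5.55 to 6.82), and of 6 choroid plexus markers, 5 were higher and 1 lower (-0.27 to 3.68 against -1.38 to 1.54). Of 4 cerebellar granule cell markers, 4 were higher in hippocampus (-0.32 to 1.44 against -1.86 to -0.17). Higher and lower in hippocampus were 2 and 0 of 3 markers of oligodendrocyte precursors, 3 and 0 of 6 of microglia, 1 and 2 of 6 of striatum and 1 and 1 of 4 of thalamus. The part of these cells in the differences of Grin2a, Grin2c, Grin3a and Grin3b was not tested.

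Age was compared as all aged against all young animals, with the groups weighted equally. No NMDA receptor probe was called in either region. In hippocampus 0 of 9 probes passed limma, where 0.511% of all probes did (0.421% higher and 0.0892% lower in aged rats), and 1 had an unadjusted p under 0.05, against 13.3% of all probes. In cortex 0 of 10 passed limma, where 0.402% of all probes did (0.236% higher and 0.166% lower), and 2 had an unadjusted p under 0.05, against 14.3%. Age and the sedative dose set for it cannot be told apart.

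Grin1 in cortex had the lowest adjusted p of these. It ranged from 6.78 through a median of 7.02 to 7.33 in 8 young cortices and from 6.77 through a median of 7.31 to 7.77 in 16 aged ones, and 15 of 16 aged animals lay above the young mean although the ranges overlapped. The difference was 0.31 (SE 0.116, limma adjusted p = 0.274), with 0.13 in the first scan batch and 0.54 in the later animals. In hippocampus Grin1 gave -0.12 (SE 0.135). Grin3b in cortex gave 0.33 (SE 0.158, limma adjusted p = 0.348), with 12 of 16 aged animals above the young mean.

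Grin2d probe 2 in hippocampus had the opposite sign. It ranged from -0.25 through a median of -0.04 to 0.94 in young and from -0.46 through a median of -0.16 to 0.03 in aged animals, and 16 of 16 aged animals lay below the young mean, which animal 2 of Y_iTBS raised. The difference was -0.26 (SE 0.105, limma adjusted p = 0.309), and -0.14 without that animal. Grin2d probe 2 gave -0.31 in the first scan batch and -0.11 in the later animals, and Grin2d probe 1 gave 0.03 (SE 0.177). Among sham animals alone 0 probes passed limma for age in hippocampus and 0 in cortex, where 0.00308% and 0.104% of all probes did, and 0 and 1 had an unadjusted p under 0.05, against 8.18% and 9.46% of all probes.

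Cognitive status was compared as AI against AU over both stimulation arms. No probe was called, and the fitted differences of both Grin2a probes and Grin2b were below 0 in both regions. In hippocampus 0 of 9 passed limma (0.00308% of all probes did) and 3 had an unadjusted p under 0.05, against 6.69% of all probes. In cortex 0 of 10 passed limma (0% of all probes) and 2 had an unadjusted p under 0.05, against 9.69%. In cortex 9 of 10 differences were below 0, and in hippocampus 4 of 9. Probes on the same arrays are not independent. No gene of the marker lists passed limma in cortex. Of 9 oligodendrocyte markers 4 had an unadjusted p under 0.05, with a list median of 0.33, and of 9 cortical neuron markers 4, with a list median of -0.14, beside 0.0 for all probes. Their part in the NMDA receptor values was not tested.

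Grin2a probe 2 in cortex ranged from 3.83 through a median of 4.06 to 4.42 in 9 AU animals and from 3.35 through a median of 3.66 to 4.31 in 7 AI animals, and 6 of 7 AI animals lay below the AU mean. The difference was -0.42 (SE 0.132, limma adjusted p = 0.381), with -0.55 in the first scan batch and -0.17 in the later animals. In hippocampus Grin2a probe 2 gave -0.37 (SE 0.129) and Grin2a probe 1 -0.42 (SE 0.15), and Grin2a probe 1 in cortex gave -0.28 (SE 0.167). In hippocampus the first scan batch gave -0.37 for Grin2a probe 2 and -0.42 for Grin2a probe 1, and the later animals -0.16 and -0.14.

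Grin2b in cortex ranged from 0.21 through a median of 0.93 to 1.42 in AU and from -0.12 through a median of 0.32 to 1.09 in AI animals, and 6 of 7 AI animals lay below the AU mean. The difference was -0.55 (SE 0.211, limma adjusted p = 0.432), and -0.43 (SE 0.195, limma adjusted p = 0.728) in hippocampus, where 6 of 7 did. In the first scan batch Grin2b gave -0.52 in cortex and -0.58 in hippocampus. Grin1 gave 0.09 in hippocampus and -0.13 in cortex.

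**Figure D3:**
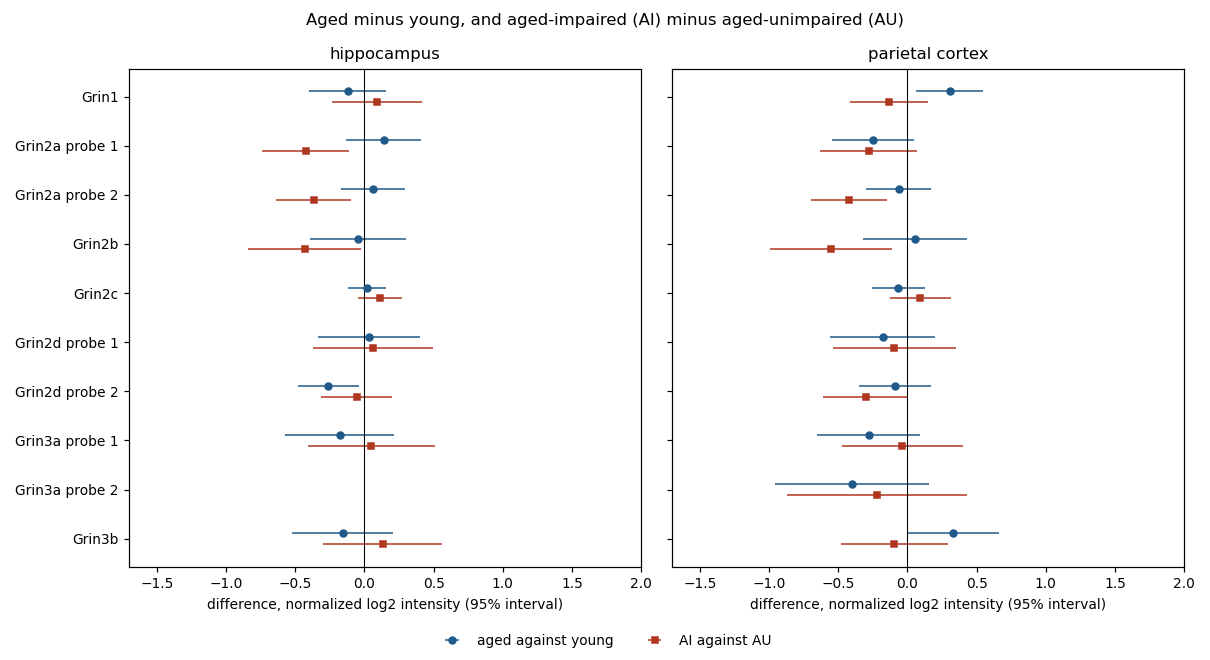
Difference in normalized log2 intensity (horizontal axes) with its 95% interval for each NMDA receptor probe in hippocampus and parietal cortex, for aged minus young (circles) and AI minus AU (squares). No difference was called; the AI minus AU intervals of both Grin2a probes and Grin2b in hippocampus, and of Grin2a probe 2 and Grin2b in cortex, lie below 0 before adjustment.

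iTBS, whose effect the study set out to measure, was compared with sham within Y, AU and AI animals, within aged animals and over all animals. No NMDA receptor probe was called in any of these 5 comparisons in either region. For Y animals 0 of 9 probes passed limma in hippocampus and 0 of 10 in cortex, where 0% and 0% of all probes passed, and 1 and 0 had an unadjusted p under 0.05, against 4.51% and 2.7% of all probes. For AU animals 0 of 9 and 0 of 10 passed limma (0% and 0% of all probes), with 0 and 3 at an unadjusted p under 0.05 (2.29% and 8.38% of all probes). For AI animals 0 of 9 and 0 of 10 passed limma (0% and 0.00613%), with 0 and 0 at an unadjusted p under 0.05 (1.95% and 4.09% of all probes). Over aged animals and over all animals 0 probes passed limma in either region (0% of all probes), with 0 at an unadjusted p under 0.05, against 2.48% and 2.92% of all probes over aged and 2.81% and 2.54% over all animals. A selection built here on the criteria the study names, whose computation its methods do not give in full and which may therefore differ from the one the study ran, used analysis of variance, pairwise test of z-scores, false discovery rate, z-ratio and mean z-score. It took 0 NMDA receptor probes in each of the 10 comparisons, and 7 to 45 of all probes. All NMDA receptor probes failed its first step, the analysis of variance over the 6 groups, which the 5 comparisons of a region share. The lowest analysis of variance p was 0.0902 in hippocampus and 0.0719 in cortex. These results therefore do not bear on the pairwise step for iTBS.

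Over all animals the intervals of the iTBS effect of Grin1, Grin2c, Grin2a probe 1 and Grin2d probe 1 included 0 in both regions. Grin1 gave -0.04 in hippocampus (95% interval -0.3 to 0.23) and 0.05 in cortex (95% interval -0.18 to 0.28). Grin2c gave 0.11 (95% interval -0.02 to 0.23) and 0.04 (95% interval -0.13 to 0.22). Grin2a probe 1 gave -0.09 (95% interval -0.34 to 0.16) and -0.19 (95% interval -0.47 to 0.09). Grin2d probe 1 gave -0.11 (95% interval -0.46 to 0.24) and 0.04 (95% interval -0.32 to 0.4).

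Grin3a probe 1 had the largest iTBS difference of all NMDA receptor probes tested, in young hippocampus. It measured 0.42, 0.38, 0.98 and 1.57 in Y_Sham hippocampi and 1.43, 2.27, 1.93 and 1.61 in Y_iTBS hippocampi. All 4 stimulated animals lay above the sham mean, and the groups overlapped through the highest sham animal. The difference was 0.97 (SE 0.307, 95% interval 0.33 to 1.61, limma adjusted p = 0.931). Grin3a probe 1 gave 0.66 in the first scan batch and 1.03 in the later animals, and between 0.82 and 1.21 when 1 animal was left out, with no call. The later value rests on 1 stimulated and 2 sham animals. No marker gene passed limma in these hippocampi, and marker lists as a whole were not tested. Striatum and choroid plexus were the only marker lists whose mean levels did not overlap between the groups. Striatum markers had a mean level of 2.32 to 2.76 after sham and 2.92 to 3.05 after iTBS, and choroid plexus markers 0.93 to 2.19 and -0.27 to 0.81, both without overlap. Cortical neuron markers ran from 1.22 to 1.41 and from 1.38 to 1.59, and hippocampal neuron markers from 3.22 to 3.44 and from 2.99 to 3.25. Their part in the difference was not tested. Lists without overlap were not particular to the young groups. In AI hippocampus, oligodendrocyte markers ran from 6.42 to 6.58 after sham and from 6.59 to 6.71 after iTBS. How often lists or single probes separate between groups was not counted.

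In cortex of the same young animals Grin3a probe 1 measured 1.31, 1.93, 1.46 and 2.62 after sham and 1.98, 3.12, 2.49 and 2.03 after iTBS, a difference of 0.57 (95% interval -0.04 to 1.18) with overlapping groups. In AU cortex the sign was the opposite, with 2.03, 2.0, 2.08 and 2.57 after sham and 0.98, 1.48, 1.74, 1.59 and 1.93 after iTBS. These groups did not overlap, and the difference was -0.63 (SE 0.278, 95% interval -1.2 to -0.05, limma adjusted p = 0.578), with -0.46 in the first scan batch. The dim Grin3a probe 2 had the other sign there (0.84, 95% interval -0.02 to 1.7), and the mean over both probes gave 0.11. In AI animals Grin3a probe 1 gave 0.22 in hippocampus (95% interval -0.47 to 0.91) and 0.12 in cortex (95% interval -0.54 to 0.77).

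The iTBS effect was not shown to differ with age. For the aged minus the young effect 0 of 9 probes passed limma in hippocampus and 0 of 10 in cortex (0% and 0% of all probes), and 2 and 1 had an unadjusted p under 0.05, against 4.29% and 3.21% of all probes. Grin3a probe 1 was among them in both regions, at -0.94 in hippocampus (95% interval -1.73 to -0.16, limma adjusted p = 0.801) and -0.83 in cortex (95% interval -1.58 to -0.08). Grin2b in hippocampus was the other, at -0.72 (95% interval -1.42 to -0.02, limma adjusted p = 0.801).

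Grin2b in young hippocampus measured 0.6, 0.65, 0.65 and 0.69 after sham and 0.82, 1.23, 1.02 and 0.95 after iTBS. These groups did not overlap, yet the difference of 0.36 (SE 0.272, limma adjusted p = 0.931) was within the spread estimated over the 6 groups. In AU hippocampus Grin2b gave -0.41 (SE 0.258), with 5 of 5 stimulated animals below the sham mean, -0.45 in the first scan batch and 0.38 in the later animals. For the young groups Grin2b gave 0.4 and 0.19 within these batches. Grin2b in AU hippocampus gave -0.12 without animal 4 of AU_Sham and -0.74 without animal 1. Grin2a probe 1 in AU cortex measured 4.43, 4.68, 4.76 and 4.89 after sham and 4.17, 3.8, 3.81, 4.96 and 4.25 after iTBS, a difference of -0.49 (SE 0.221, limma adjusted p = 0.578). In the first scan batch, which held 3 sham and 2 stimulated animals, Grin2a probe 1 gave -0.17. Grin2d probe 2 in AU cortex gave 0.4 (SE 0.194, limma adjusted p = 0.578), and 0.17 in the first scan batch. Grin2c in AI cortex measured 6.44, 6.38, 6.55 and 6.47 after sham and 6.64, 6.67 and 6.58 after iTBS, without overlap, a difference of 0.17 (SE 0.16, 95% interval -0.16 to 0.5).

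**Figure D4:**
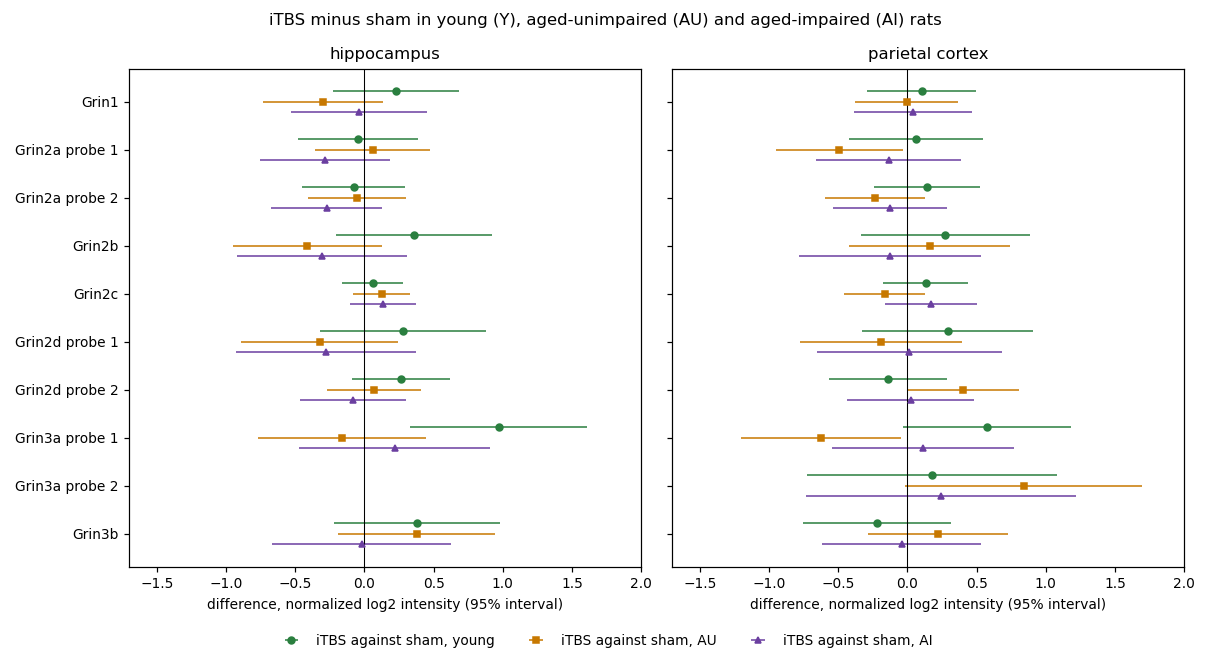
Difference between iTBS and sham in normalized log2 intensity (horizontal axes) with its 95% interval for each NMDA receptor probe, in young (circles), AU (squares) and AI (triangles) rats, for hippocampus and parietal cortex. No difference was called; before adjustment the interval of Grin3a probe 1 lies above 0 in young hippocampus and those of Grin3a probe 1 and Grin2a probe 1 lie below 0 in AU cortex, where the lower end for Grin2d probe 2 is at 0.

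Animals with a high Grin3a probe 1 value in hippocampus tended to have one in cortex. Over the 24 animals Pearson's r between the regions was 0.723 and Spearman's rho 0.665, given as a description. Pearson's r was 0.8 in the 15 first-batch animals, 0.459 in the 9 later ones, and 0.601 over all once group and batch means were taken out. For the other 9 probes r lay between -0.305 and 0.337. Over 24299 probes the median r was 0.0309, and 1.83% of them lay above Grin3a probe 1. The regions of an animal share its treatment and, in 16 of 24 animals, the scan batch.

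**Figure D5:**
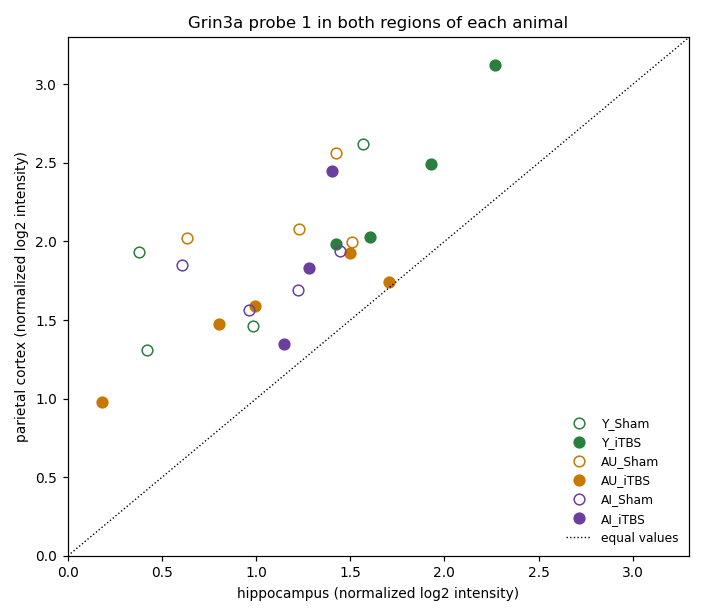
Grin3a probe 1 in hippocampus (horizontal axis) and parietal cortex (vertical axis) of each animal, in normalized log2 intensity, colored by age and cognitive status, open for sham and filled for iTBS. All 24 points lie above the dotted line of equal values, and the highest value in each region belongs to the same Y_iTBS animal.

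Within a region most NMDA receptor probes varied apart from each other. Of 45 probe pairs, 5 had r over 0.5 in hippocampus (range -0.498 to 0.892) and 4 in cortex (range -0.426 to 0.691), each over 24 animals. The pair of Grin2a probes was the highest in both regions. Grin2a probe 2 and Grin2b had r = 0.554 in hippocampus and 0.651 in cortex. Grin1 had r = 0.583 with Grin2b and 0.577 with Grin2d probe 1 in hippocampus, probes whose levels there also differed by scan batch. The Grin2d probes had r = 0.0008 in hippocampus and -0.265 in cortex, so that their results hold for each probe and not for the gene as a whole.

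The genes most like each probe were taken from 14062 named probes, by the lower of the correlations over 24 hippocampi and over 24 cortices. Grin1 was most like Dpp9 (0.947) and Polrmt (0.943), Grin2a probe 1 like Zbtb20 (0.833) and Ranbp6 (0.823), and Grin2a probe 2 like Epha7 (0.788) and Ank3 (0.762). Grin2b was most like Syt1 (0.873) and Ralgdsl1 (0.87), and Grin2c like Atat1 (0.611) and Abcb6 (0.588). Grin2d probe 1 was most like Basp1 (0.836) and Hmx1 (0.83), Grin2d probe 2 like Slc25a45 (0.719) and Gpd1l1 (0.702), and Grin3a probe 1 like Necab1 (0.642) and Thumpd1 (0.633). The arrays share scan batches, and these values are a description.

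Of the genes on the 4 lists around the receptor, 1 was called outside the comparison of regions, and it is named after its values were seen. The call was for age in hippocampus, where 166 of 32503 probes tested (0.511%) were called. Many genes and comparisons were read, and no list was tested against that share. Aadat, an enzyme that makes kynurenic acid, a blocker of the co-agonist site, ranged from 2.92 through a median of 3.22 to 3.66 in 8 young hippocampi and from 3.27 through a median of 3.68 to 4.4 in 16 aged ones. All 16 aged animals lay above the young mean and 8 above the highest young animal. The difference was 0.48 (SE 0.107, limma adjusted p = 0.0476). Aadat was called in 8 of 14 other settings and in 5 of 24 with 1 animal left out, with an adjusted p over the settings from 8.36e-04 to 0.727, the latter in sham animals alone, where the difference was 0.24. Of the marker lists, the microglia gene Itgam was called in the same comparison at 0.49 (SE 0.11, limma adjusted p = 0.0496).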

How the data were processed

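Total RNA of each region was hybridized by the authors to Agilent SurePrint G3 rat arrays and read with Feature Extraction 12.0.3.1. The deposited scanner files hold the processed signal intensity of 62976 features, not normalized between arrays. The authors also deposited a z-score table. Its score for a feature is the log processed signal, centered and scaled on that array by the authors, to within 0.005. Here, spots marked as outliers were left out, copies of a probe averaged, log2 intensity turned into a z-score over the non-control probes of each array and multiplied by the mean SD, 4.08, and the repeats of an animal averaged. A probe was tested where at least 3 of 24 animals were well above background (32503 probes in hippocampus, 32613 in cortex, 33770 between regions). With limma 3.58.1 in R 4.3.3, 6 group means were fitted to each region, or to the within-animal difference, with two-sided moderated tests and Benjamini-Hochberg adjustment over all probes tested. Called means an adjusted p under 0.05. The procedure was tested on simulated data, and the number of arrays limits its precision. All probes of the 7 genes are named and, from each list around the receptor, up to 2 called genes per direction, except for genes not reported here. Members and lists were chosen with earlier results of these data known. 1 array whose title and description name different animals entered no comparison.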

Additional observations from a re-analysis of the deposited data

Results flagged for a closer look

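In groups of 4 or 5 animals, 10 of 100 combinations of probe, region and group had 1 animal far from the others by Dixon's criterion, where chance gives about 5. In Y_Sham, animal 4 stood apart in 3 of them, with Grin2a probe 2 at 4.43 (others 4.68 to 4.7) in hippocampus and 4.26 (others 3.74 to 3.8) in cortex, and Grin2b at 1.29 (others 0.16 to 0.25) in cortex. In Y_iTBS, Grin3b of animal 3 was low in both regions, at -1.92 (others -1.7 to -1.66) in hippocampus and -2.17 (others -1.85 to -1.82) in cortex, and Grin2d probe 1 of animal 1 was at 6.85 (others 7.93 to 7.99) in hippocampus. In AU_iTBS, Grin2a probe 2 of animal 1 was at 5.26 (others 4.58 to 4.78) in hippocampus. In AU_Sham cortex, Grin2d probe 1 of animal 3 was at 7.99 (others 7.45 to 7.52), Grin2d probe 2 of animal 1 at 0.30 (others -0.44 to -0.37), and Grin3a probe 1 of animal 4 at 2.57 (others 2.0 to 2.08). None of 39 tests of a difference in effect between ages or treatments passed limma for an NMDA receptor probe.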

How the results depend on the processing

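Counts of NMDA receptor probes called were recomputed with 75th percentile scaling, quantile normalization, normexp on the median spot signal (in place of the planned mean signal), the deposited z-scores, no filter on dim probes, a mean z-score above 0, first arrays only, all labeled repeats averaged, scan batch as a term, the first scan batch alone, the later ones alone (added after seeing the data), slide as a random block, sham or iTBS animals only and the mean over a gene's probes. All 305 such counts, and all 504 with 1 animal left out, stayed within 1.5 times the count reported. Only the comparison of regions had counts above 0, from 4 to 6 over the settings and 5 without each animal. The other counts were 0 throughout, in comparisons where few or no probes of the array were called, so their stability says little. For the 23 probe results that were called or had an unadjusted p under 0.05, 320 of 324 values kept their direction and call. Grin2c in the later animals (0.33), and Grin3b in the later animals (-0.12) and in iTBS animals (-0.31), were no longer called between regions. Outside these 23, Grin3a probe 2 was called between regions in the later animals (-0.76), and Grin1 (0.16 and -0.37), Grin2b (0.22 and -0.04) and Grin2d probe 2 (0.18 and -0.2) changed sign there between the first and the later batches. The mean over both Grin3a probes turned the AU cortex difference of Grin3a probe 1 from -0.63 to 0.11; the cause was not tested. Animals sharing a replicate number deviated together in no consistent way, with correlations from -0.28 to 0.39, although all 3 AI pairs in cortex were over 0.1. With replicate number as a term in the fit, 0 probes were called within either region. Between regions 5 were called when the 48 values of animal and region were taken as independent, without the pairing within animals. No setting moved the median of all probes by over 0.1. Grin3a probe 2 and Grin3b are limited by signal near background, and AI comparisons by 3 stimulated animals.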

Other observations

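The array whose labels name both a young sham and an aged stimulated animal, and which was put in no group, gave 7.13 for Grin1, 5.06 and 4.58 for Grin2a probes 1 and 2, 0.89 for Grin2b, 6.74 for Grin2c, 7.22 and 0.11 for Grin2d probes 1 and 2, 0.86 for Grin3a probe 1, -3.26 for Grin3a probe 2 and -1.74 for Grin3b. Each value lay inside the range of the 24 hippocampi.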
